A study of Mus musculus with 8 samples.

Results

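The Hes and Hey genes encode repressors of the basic helix-loop-helix (bHLH) class, and 8 of them (Hes1, Hes3, Hes5, Hes6, Hes7, Hey1, Hey2 and Heyl) were followed in sorted cells of mouse medulloblastoma, a tumour of the cerebellum. The members were taken by gene name from 22180 genes measured with probe sets that the array's annotation gives 1 symbol. The 8 genes had 10 such probe sets, since Hes5 and Hes7 had a pair each and the other 6 had 1 each, and the brighter probe set of a pair stood for its gene. All 8 members were tested, with no filter on low values.

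The mice carried Patched1+/- and the Sox2-eGFP reporter, from Patched1+/- CD1 and Sox2eGFP B6 parents. All were irradiated at birth with 3 Gy, and tumours were taken at an age over 70 days, when signs of a tumour appeared. Cells bearing CD45 or Ter119, marks of white and red blood cells, were depleted from both fractions, and the rest were sorted by eGFP into Sox2-positive and Sox2-negative cells. Each array held the RNA of 3 tumours in 1 pool, and there were 4 arrays of each fraction, with no normal tissue among the groups compared here. The reporter marks cells that express Sox2, and either fraction can hold cells of several types.

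Hes1, Hes5, Hey1, Hey2 and Heyl are known as direct targets of Notch signalling. When a ligand on a neighbouring cell binds a Notch receptor, the receptor is cleaved, and its inner domain enters the nucleus, joins the DNA-binding protein RBPJ and a Mastermind coactivator, and switches these genes on. Their products repress proneural genes such as Atoh1, which keeps progenitors of the nervous system from becoming neurons and favours glial fates. Hes proteins recruit corepressors of the Groucho (Tle) family.

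Values are log2 intensities made by the authors with RMA, and a difference of 1 is a 2-fold change. Differences are Sox2-positive minus Sox2-negative, and a gene is called higher or lower at an adjusted p under 0.05 over all genes in limma. Each probe set has its own scale, so levels of different genes cannot be ranked. The table gives no detection call, and 1373 genes for smell and pheromone receptors, which have no known use here, served as a guide to dim values (median 4.95, upper quartile 5.80). Pairs of Sox2-positive arrays correlated at 0.981 to 0.987, pairs of Sox2-negative arrays at 0.973 to 0.984 and mixed pairs at 0.942 to 0.968. Sox2 itself lay between 5.67 and 6.36 in the Sox2-positive pools and between 4.04 and 4.60 in the others. In bulk RNA, fewer cells of a type and less RNA per cell cannot be told apart, and this holds for every difference given here.

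Hes5 and Hey2 were higher in Sox2-positive cells, by 1.93-fold and 2.27-fold, and the other 6 members did not pass the test. Thus 2 of 8 members were called higher and 0 lower, where 5.96% of all genes were called higher and 2.52% lower. At an unadjusted p under 0.05 in limma, 2 were higher and 2 (Hes3 and Hey1) lower. The median difference of the members was 0.14, against -0.03 over all genes. The values of the fractions did not overlap for 2 of the 8 members, as for 13.7% of all genes. The call of Hes5 and Hey2 held in all 15 alternatives run, and that of Hes5 rests on 1 of its 2 probe sets.

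**Figure D1:**
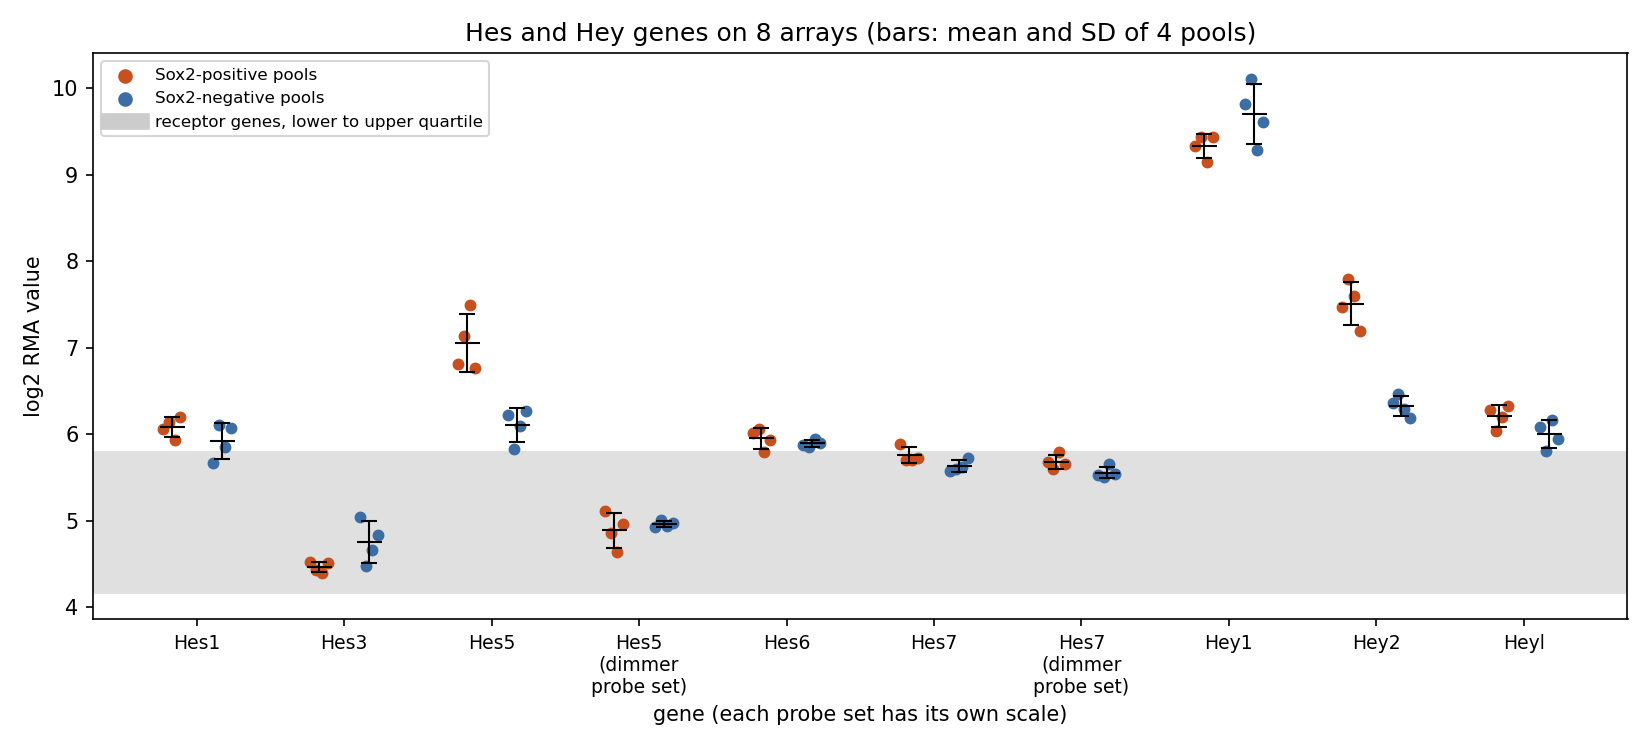
Log2 RMA value (vertical axis) of each Hes and Hey probe set in 4 Sox2-positive and 4 Sox2-negative pools, with bars at the mean and SD and a grey band from the lower to the upper quartile of smell and pheromone receptor genes. The pools of the fractions are fully apart for Hey2 and for the brighter probe set of Hes5, and Hes3 and the dimmer probe sets of Hes5 and Hes7 lie within the band in all pools.

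Hes5 is a Notch target of neural stem cells and of glial progenitors. Its value was 6.82, 7.14, 7.50 and 6.76 in Sox2-positive pools 1 to 4 and 6.22, 5.83, 6.09 and 6.27 in Sox2-negative pools 1 to 4. All Sox2-positive pools lay above all Sox2-negative pools, with a gap of 0.50 between the groups. The means were 7.05 ± 0.34 and 6.10 ± 0.20 (SD, n = 4 each), a log2 difference of 0.95 (SE 0.15, 95% interval 0.62 to 1.28, limma adjusted p = 0.00116). A larger positive difference was found for 1.81% of all genes.

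The other probe set annotated to Hes5 did not move with it. It read 5.12, 4.86, 4.63 and 4.96 in the Sox2-positive pools and 4.92, 5.01, 4.94 and 4.98 in the Sox2-negative pools. The groups overlapped and the log2 difference was -0.07 (95% interval -0.29 to 0.15; adjusted p = 0.781 in a limma fit over 23521 probe sets). All 8 values were under the receptor upper quartile, and 4 were under the receptor median. Within each array, the brighter minus the dimmer probe set was 1.70 to 2.87 in Sox2-positive and 0.82 to 1.30 in Sox2-negative pools. As the dimmer probe set read at the level of the receptor genes, this contrast (1.02) mostly restates the difference of the brighter one. It was tested among the 3 comparisons over which the permutation p-values below are adjusted, and is given only as a description. With the mean of both probe sets the difference of Hes5 was 0.44 (limma adjusted p = 0.00513), less than with the brighter one alone.

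Hey2 is a repressor of the Hey branch, known from heart, blood vessels and the inner ear as well as from neural progenitors. It had 1 probe set, which read 7.47, 7.79, 7.60 and 7.19 in Sox2-positive pools 1 to 4 and 6.36, 6.47, 6.29 and 6.19 in Sox2-negative pools 1 to 4. The groups were apart by 0.72, more than the SD of either. The means were 7.51 ± 0.25 and 6.33 ± 0.12 (SD, n = 4 each), a log2 difference of 1.18 (SE 0.12, 95% interval 0.92 to 1.45, limma adjusted p = 2.5e-05). This was the largest difference of the 8 members, and 1.22% of all genes had a larger one.

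The promoters of both called genes are shown because each holds a pair of matches to the motif of RBPJ, the DNA-binding partner of Notch. RefSeq promoter windows (250 bases before to 50 after a start, build GRCm38.p6) were at hand for 4 of the 8 members, Hes5, Hes6, Hes7 and Hey2, with 2 starts for Hes6. Of the direct Notch targets named above, those that were not called (Hes1, Hey1 and Heyl) had no window. Whether such a pair sets the called targets apart from those not called therefore cannot be seen. The windows printed run from 250 bases before the start to 10 after it, 5′ to 3′ on the strand of the gene, and capitals mark GTGGGAA on either strand (TTCCCAC where it lies on the other strand). Hes5 is at chr4:154960673-154960932 on the plus strand, Hey2 at chr10:30842774-30843033 on the minus strand, and Hes7, which did not pass the test and holds 1 match, at chr11:69120203-69120462 on the plus strand.
Hes5: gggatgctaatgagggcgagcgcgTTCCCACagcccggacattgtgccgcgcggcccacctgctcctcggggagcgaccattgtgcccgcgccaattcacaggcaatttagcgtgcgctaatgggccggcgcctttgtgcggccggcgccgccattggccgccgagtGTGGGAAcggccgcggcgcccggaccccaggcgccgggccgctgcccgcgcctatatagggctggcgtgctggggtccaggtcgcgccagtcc
Hey2: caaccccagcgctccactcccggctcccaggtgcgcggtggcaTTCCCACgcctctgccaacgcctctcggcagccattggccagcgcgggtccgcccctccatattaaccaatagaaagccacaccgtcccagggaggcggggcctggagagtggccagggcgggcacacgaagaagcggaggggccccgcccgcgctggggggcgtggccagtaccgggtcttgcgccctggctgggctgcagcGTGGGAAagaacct
Hes7: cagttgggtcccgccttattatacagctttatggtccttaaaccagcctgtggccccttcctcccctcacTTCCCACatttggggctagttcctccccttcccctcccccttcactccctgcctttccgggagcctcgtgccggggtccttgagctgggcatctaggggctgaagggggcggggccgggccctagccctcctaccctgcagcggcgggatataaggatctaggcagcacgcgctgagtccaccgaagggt

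In Hes5 the matches begin 226 and 83 bases before the start, on opposite strands with 136 bases between them. In Hey2 they begin 207 and 4 bases before the start, also on opposite strands, with 196 bases between them, and the nearer one spans the start. Of 32851 promoter windows in the table, 6.38% held GTGGGAA at least once on either strand and 0.256% held it 2 or more times. The shorter core TGGGAA, which lies within it, was found in 25.6% of windows. Hes7 held 1 match, 180 bases before its start, and the Hes6 windows held none. CACNAG, the N box to which Hes proteins bind, was found in the windows of Hes7 (1 match) and of the second Hes6 start (2 matches), in neither Hes5 nor Hey2, and in 42.5% of all windows. A match describes letters in the sequence and not a bound site.

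**Figure D2:**
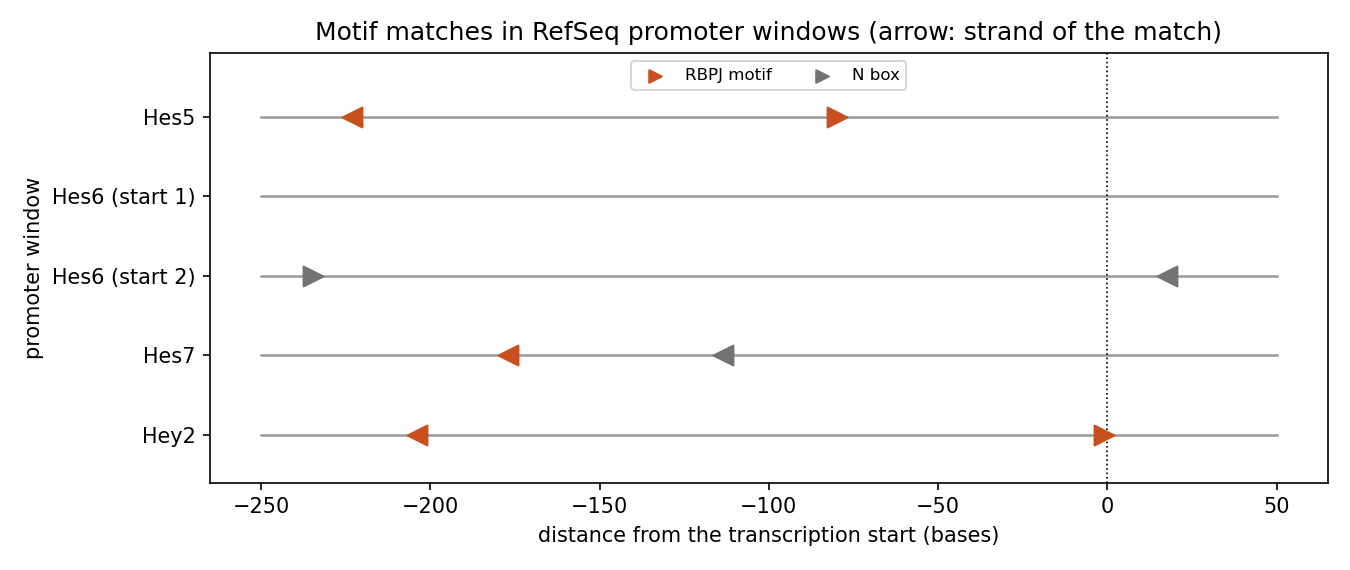
Position of matches to the RBPJ motif (GTGGGAA) and the N box (CACNAG) in 5 RefSeq promoter windows of Hes5, Hes6, Hes7 and Hey2, by distance from the transcription start in bases, with arrows for the strand. Hes5 and Hey2 hold 2 RBPJ matches each, Hes7 holds 1 and the Hes6 windows hold none.

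Hes1 is the Notch target that acts beside Hes5 in neural stem cells and is also known to respond to Hedgehog signalling, the pathway that drives these tumours. It read 6.06, 6.14, 5.93 and 6.20 in the Sox2-positive pools and 5.66, 6.11, 5.85 and 6.08 in the Sox2-negative pools. The groups overlapped, and the log2 difference was 0.16 (SE 0.11, 95% interval -0.08 to 0.39, limma adjusted p = 0.488). The upper end of that interval lies below the lower end for Hes5 (0.62). Taken within each array, Hes5 minus Hes1 was 0.57 to 1.57 in Sox2-positive and -0.28 to 0.56 in Sox2-negative pools. These ranges nearly touched, and the difference between the fractions was 0.79 (exact two-sided permutation test, 70 splits, p = 0.0286, the smallest they can give, adjusted p = 0.0286 over 3 such comparisons).

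Hey1, the closest relative of Hey2, is a Notch target of blood vessels and of neural precursors. It read 9.33, 9.43, 9.14 and 9.44 in the Sox2-positive pools and 9.82, 10.11, 9.29 and 9.61 in the Sox2-negative pools. All 8 values lay above the receptor upper quartile, and the groups overlapped only because Sox2-negative pool 3 was as low as the Sox2-positive pools. The means were 9.34 ± 0.14 and 9.70 ± 0.34 (SD, n = 4 each), a log2 difference of -0.37 (SE 0.15, 95% interval -0.69 to -0.05, limma adjusted p = 0.167). With the replicate number as a block the adjusted p was 0.0489, and without Sox2-negative pool 3 the difference was -0.51 (adjusted p = 0.0278), so that both settings would call it lower. Without Sox2-negative pool 2 the difference shrank to -0.24 (adjusted p = 0.325).

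The differences of Hey2 and Hey1 thus had opposite signs, although only that of Hey2 passed the limma test. Hey2 minus Hey1 within an array was -2.25 to -1.55 in Sox2-positive and -3.64 to -3.00 in Sox2-negative pools. The groups did not overlap, and the difference between them was 1.55 on the log2 scale (exact two-sided permutation test, p = 0.0286, adjusted p = 0.0286 over 3 comparisons). A pair of probe sets shows unequal change between the fractions and not how much of either RNA is present.

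**Figure D3:**
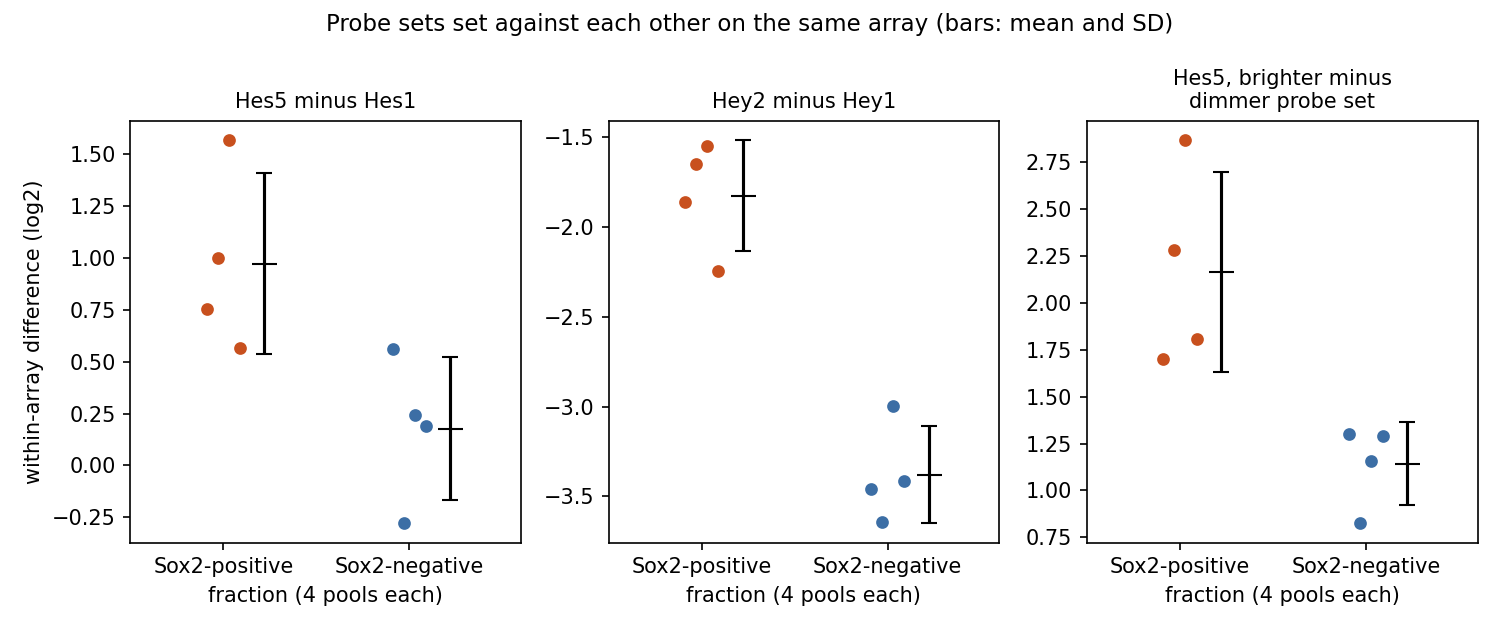
Difference between probe sets of the same array (vertical axis, log2) in 4 Sox2-positive and 4 Sox2-negative pools, with bars at the mean and SD, for Hes5 minus Hes1, Hey2 minus Hey1 and the brighter minus the dimmer probe set of Hes5. The fractions do not overlap in any of the 3 panels, and Hes5 minus Hes1 comes closest, with 0.57 in Sox2-positive pool 4 and 0.56 in Sox2-negative pool 1.

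Heyl, the third Hey gene and a Notch target of vascular smooth muscle, read 6.28, 6.03, 6.20 and 6.33 in the Sox2-positive pools and 6.08, 5.80, 6.17 and 5.95 in the Sox2-negative pools. The Sox2-positive pools 1, 3 and 4 lay above all Sox2-negative pools and pool 2 did not. The log2 difference was 0.21 (SE 0.10, 95% interval -0.01 to 0.43, limma adjusted p = 0.284), and an increase up to 1.35-fold lies within that interval.

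Hes6 differs from the others in that it opposes Hes1 and favours neuronal differentiation. It lay between 5.79 and 6.06 in the Sox2-positive and between 5.86 and 5.94 in the Sox2-negative pools. The log2 difference was 0.06 (95% interval -0.13 to 0.25, limma adjusted p = 0.783), the smallest of the 8 members. Its interval leaves room for a change of up to 1.19-fold upward.

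Hes3 and Hes7 were the members with a mean below the receptor upper quartile. Hes3, known from the early neural tube and from neural stem cells, read 4.52, 4.43, 4.39 and 4.51 in the Sox2-positive pools and 5.04, 4.48, 4.66 and 4.83 in the Sox2-negative pools, and 7 of its 8 values lay below the receptor median. Its log2 difference was -0.29 (95% interval -0.53 to -0.04, limma adjusted p = 0.161), and without Sox2-negative pool 2 it was -0.38 (adjusted p = 0.0411). Hes7, part of the clock that segments the embryonic trunk, lay between 5.70 and 5.89 in the Sox2-positive and between 5.57 and 5.73 in the Sox2-negative pools. Its probe sets gave nearly the same log2 difference, 0.13 for the brighter (95% interval -0.06 to 0.31, limma adjusted p = 0.467) and 0.12 for the dimmer. A difference at such levels may be understated.

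**Figure D4:**
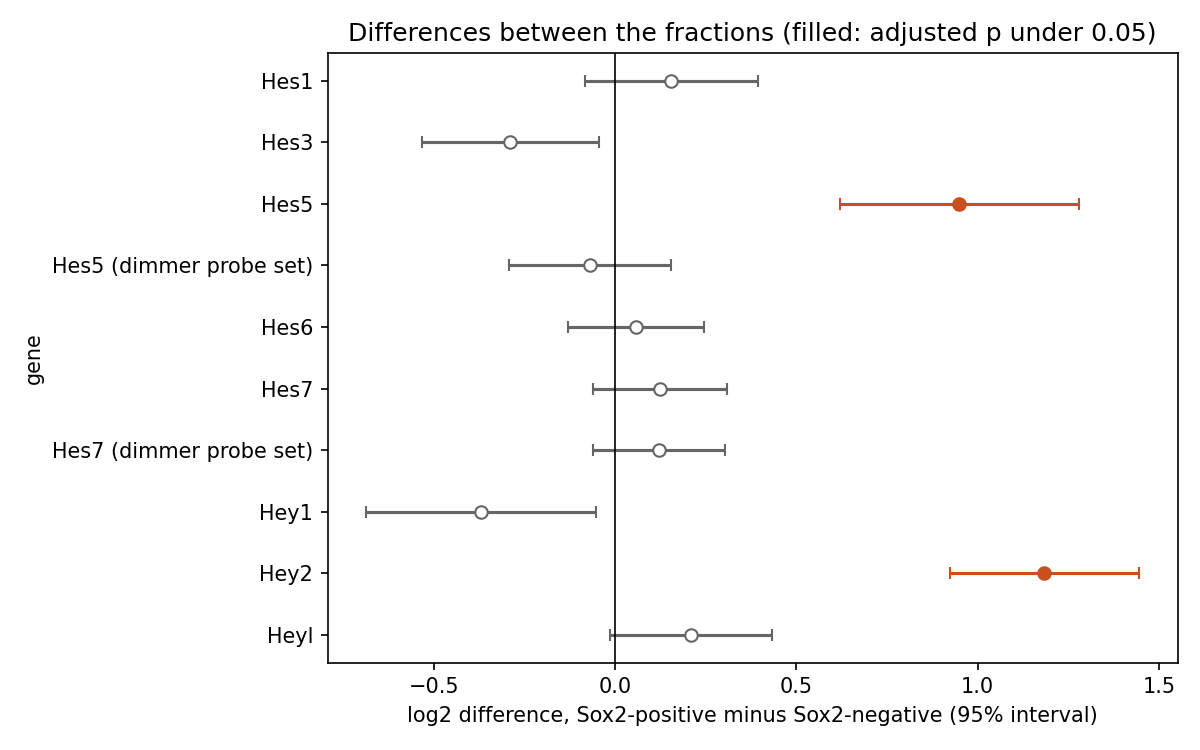
Log2 difference between Sox2-positive and Sox2-negative cells (horizontal axis) with its 95% interval for each of the 10 Hes and Hey probe sets, filled where the adjusted p was under 0.05. Hey2 (1.18) and Hes5 (0.95) stand to the right of the other probe sets, and Hes3 (-0.29) and Hey1 (-0.37) have intervals below 0 without passing the adjusted test.

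Within the Sox2-positive group, Hes5, Hey2 and Sox2 each had their 2 highest values in pools 2 and 3, with Hey2 highest in pool 2 and Hes5 and Sox2 highest in pool 3. Among all genes called higher, pool 2 was the highest of the 4 for 46.6% and pool 3 for 43.8%, against 23.6% and 25.6% over all genes. The genes whose 8 values, each centred on its own mean, lay nearest to those of Hes5 were Kcnip1, Mlc1 and Aldoc (root mean square difference 0.0931, 0.10 and 0.13 over 8 arrays). Aldoc is among the markers of astrocytes and radial glia counted below, and the cell types that use the nearest genes were not examined. Those nearest to Hey2 were Rit2, Ppt1 and Scamp5 (0.0866, 0.0954 and 0.114), with log2 differences of 1.22, 1.12 and 1.04.

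Markers of several cell types differed between the fractions, in both directions. All 6 oligodendrocyte progenitor markers were higher in Sox2-positive cells (summed linear level 3774 to 5573 against 699.5 to 854.1), as were 5 of 9 markers of astrocytes and radial glia (3094 to 4917 against 1003 to 1421). All 6 granule neuron progenitor markers were lower (2003 to 2325 against 3751 to 4592), and Atoh1 is counted both among them and among the bHLH activators below. Hey genes are also used by vessels. Of 10 endothelial markers 0 passed the limma test (1 at an unadjusted p under 0.05), and 7 had a mean below the receptor upper quartile. The summed level of the endothelial markers was 414.9 to 430.9 against 409.9 to 457.3. Of 9 mural cell markers 1 was higher, Rgs5 (log2 difference 0.37), with a summed level of 524.5 to 566.5 against 532.3 to 586.5. Of 8 markers of microglia and macrophages, cells the depletion was meant to remove, 0 passed in limma (2 at an unadjusted p under 0.05), with a summed level of 428.2 to 452.5 against 390.9 to 509.7. The part of these cell types in the differences of Hes5 and Hey2 was not tested.

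The genes around the Hes and Hey repressors were followed in 9 lists of the Notch pathway and of bHLH factors, with 67 of 71 listed symbols measured. Of these genes 7 were higher and 8 lower, where 5.96% of all genes were called higher and 2.52% lower. The same shares stand beside the counts of each list below. The bHLH activators gave 6 of the 8 lower genes. The median log2 difference of the listed genes was -0.01 against -0.03 over all genes. The count of higher genes was 11 with the replicate block and with quantile normalization, and that of lower genes 9 with either. The block added 5 calls in these lists and ended none (0), and the genes it added beside Jag1 (Lfng, Aph1a, Tle2 and Neurod2) are named after their values were seen. The count of lower genes was 4 without Sox2-positive pool 2 and 5 without Sox2-positive pool 3.

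Of 4 Notch receptors 1 was higher. Notch1 read 7.57, 7.92, 7.78 and 7.72 in the Sox2-positive and 6.96, 6.52, 7.01 and 6.88 in the Sox2-negative pools, with no overlap (log2 difference 0.90, SE 0.12, limma adjusted p = 0.000195). Notch2, Notch3 and Notch4 had differences of -0.12, 0.02 and 0.04. None of the 5 ligands passed in limma (0 called, 1 at an unadjusted p under 0.05). Jag1 had the largest difference, 0.53 (limma adjusted p = 0.0547), and it passed with the replicate block (0.0343), with quantile normalization (0.0454) and without the dimmer genes (0.0361). Without Sox2-positive pool 3, where Jag1 was highest, the difference was 0.34 (adjusted p = 0.0837), and the other arrays left out in turn gave 0.46 to 0.60 (0.0529 to 0.149).

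Of 17 genes for receptor cleavage, sugar modification and ligand uptake 2 were higher and 0 lower, and 4 were higher with the replicate block, which added Lfng (log2 difference 0.55, limma adjusted p = 0.0178 with the block) and Aph1a (0.35, 0.0257). Psenen, a subunit of the gamma-secretase that frees the inner domain of Notch, was higher by 0.51 on the log2 scale (limma adjusted p = 0.0109). Adam17, a protease that sheds outer domains of membrane proteins, was higher by 0.44 (limma adjusted p = 0.0184). Leaving out pool 3 of the Sox2-positive group, or pool 1 or 4 of the Sox2-negative group, ended this call (0.0519 to 0.064). Among 8 genes of the nuclear complex the Mastermind coactivators split. Maml2 was higher (log2 difference 0.57, limma adjusted p = 0.0139; 0.0529 without Sox2-positive pool 2) and Maml3 lower (fell by 0.63, adjusted p = 0.0014), while Rbpj itself had a difference of -0.07 (95% interval -0.32 to 0.17).

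Of 8 antagonists of the pathway 1 was higher. Nrarp, a Notch target that feeds back to limit the signal, read 5.71, 5.56, 5.94 and 5.48 in the Sox2-positive and 4.80, 4.78, 5.02 and 4.97 in the Sox2-negative pools. The groups were apart, and the log2 difference was 0.78 (limma adjusted p = 0.000398), although the Sox2-negative mean lay below the receptor median. Numb and Numbl, inhibitors of Notch, had differences of -0.20 and -0.31, and neither passed in limma (adjusted p = 0.228 and 0.0655).

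Of 6 Groucho corepressors 1 was lower and 0 higher, and with the replicate block Tle2 was higher (log2 difference 0.31, limma adjusted p = 0.0853, and 0.0431 with the block). Tle1 fell by 0.46 on the log2 scale (limma adjusted p = 0.0333), and the mean of its probe sets (0.0598) ended this call. Leaving out pool 2, 3 or 4 of the Sox2-positive group, or pool 1 or 2 of the Sox2-negative group, ended it too (0.0556 to 0.106). Among 4 other bHLH repressors that carry the Orange domain of the Hes family 2 were higher. Bhlhe40 read 6.88, 7.12, 7.22 and 7.40 in the Sox2-positive and 5.93, 6.10, 5.79 and 6.37 in the Sox2-negative pools (log2 difference 1.11, limma adjusted p = 0.000116). Bhlhe41, which like Bhlhe40 is tied to the circadian clock, had a difference of 0.61 (limma adjusted p = 0.00183). All Bhlhe41 values lay below the receptor upper quartile, and those of the Sox2-negative pools below the receptor median. None of the 4 Id genes, which bind and block bHLH activators, passed in limma (0 called, 1 at an unadjusted p under 0.05), the largest difference being that of Id3 (0.35, adjusted p = 0.0771). Id3 passed with quantile normalization (0.0463) and without Sox2-positive pool 4 (0.039).

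Proneural and neuronal bHLH activators are the class that Hes proteins are known to oppose. Of 11 measured, 6 were lower and 0 higher, with a median log2 difference of -0.57, and 3 were lower without Sox2-positive pool 2. With the replicate block 7 were lower, Neurod2 being added (log2 difference -0.61, limma adjusted p = 0.146, and 0.00403 with the block). Nhlh1 and Nhlh2, factors of young neurons, fell by 1.35 and by 1.13. Neurod1, a factor of granule neurons, fell by 0.82 (limma adjusted p = 0.0155; 0.0529 without Sox2-positive pool 2). Atoh1, which specifies granule neuron progenitors, fell by 0.71 (limma adjusted p = 0.0278). Its call was lost on leaving out any 1 of 5 arrays, pools 1, 2 and 3 of the Sox2-positive and pools 1 and 4 of the Sox2-negative group (0.0543 to 0.0868).

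**Figure D5:**
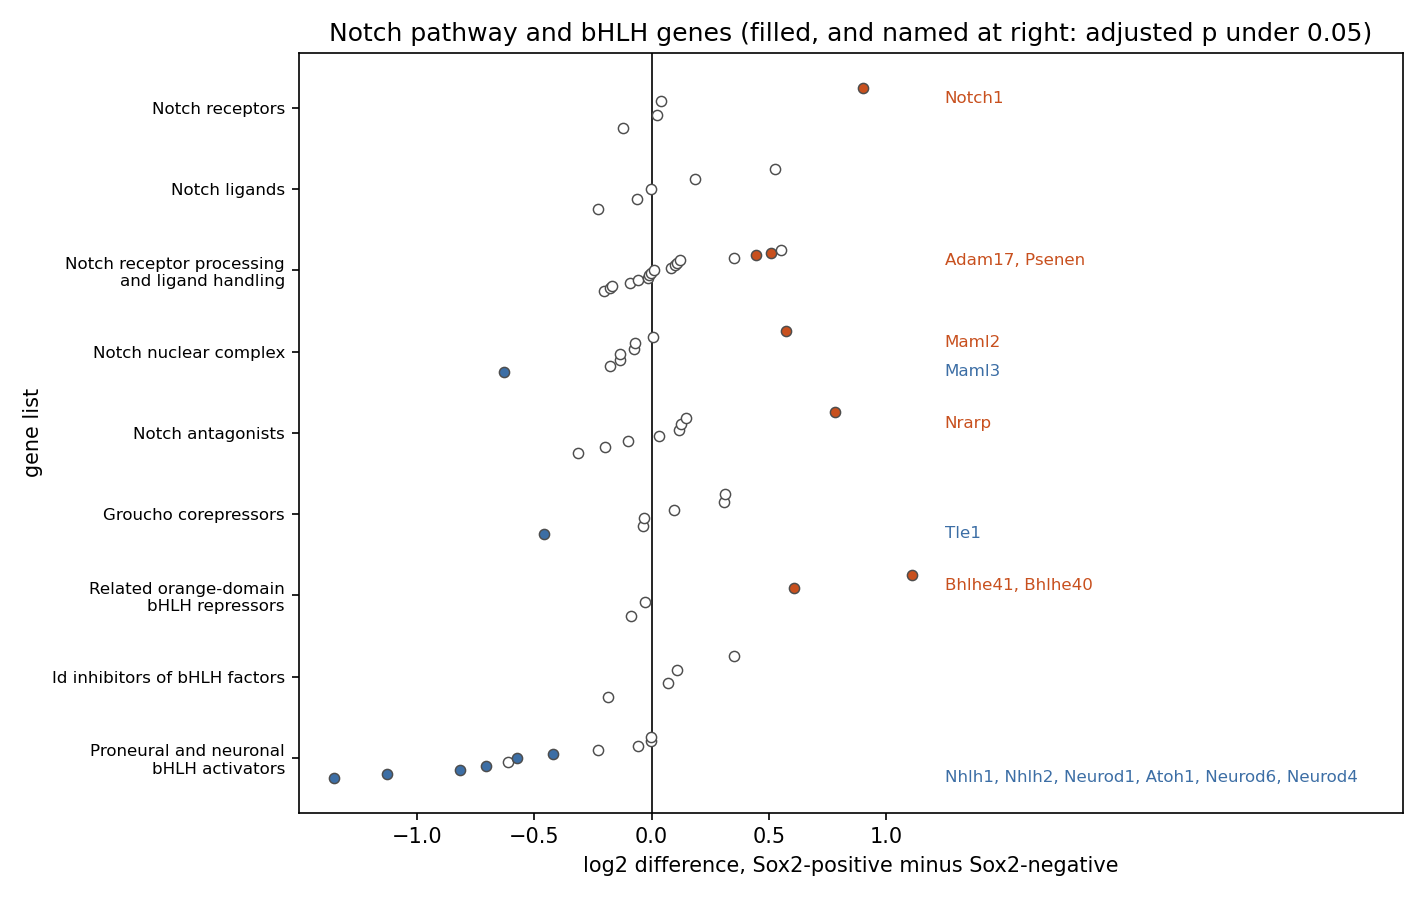
Log2 difference between Sox2-positive and Sox2-negative cells (horizontal axis) of 67 genes in 9 lists of the Notch pathway and of bHLH factors, 1 point a gene, filled and named where the adjusted p was under 0.05. The 7 higher genes are spread over 5 lists, and 6 of the 8 lower genes are bHLH activators.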

How the data were processed

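The deposited log2 values, 1 per probe set on each of 8 arrays, are RMA output of the Affymetrix Expression Console (version 1.2.0.20; background correction, normalization to a common distribution, summary of probes), per the submitters' processing notes. RMA compresses differences of dim genes. That the scale is log2 follows from the range of the values (2.51 to 13.6). The genome build used for the probes is not given in the sources used here.

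Of 41345 probe sets, 23521 had 1 gene symbol, 1814 had several and 16010 were unnamed here. Of those with 1 symbol, 23328 matched a RefSeq gene table (GRCm38.p6), used for symbols only. The probe set with the highest mean over 8 arrays stood for each gene, which left 22180. Differences were tested in R 4.3.3 with limma 3.58.1 (lmFit, eBayes, group as the only term, two-sided, Benjamini-Hochberg over all genes, threshold 0.05). The labels call the pools biological replicates. The limma p-values set the group difference against the spread between 4 pools a group, which limma moderates over all genes. The number of pools limits the precision.

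The members and lists were chosen with earlier results of these data known. Beside the members, up to 4 called genes a list were named by size (the largest where none passed), and the 3 nearest genes of each called member, leaving out predicted models. Notch2, Notch3, Notch4, Rbpj, Numb, Numbl and Rgs5 were named outside this rule. In simulated data for this comparison (200 of 22180 genes changed), 49.9% of changes of 0.5 and 94.2% of changes of 1 were recovered.

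For replicate numbers 1 to 4, the deviations of the equally numbered arrays from their group means had correlations of 0.164, 0.114, 0.177 and 0.241, and arrays of unequal number had at most 0.161. The labels do not say that equal numbers share tumours. The pairing was tried as a replicate block, and its value is given where it changed a call.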

Additional observations from a re-analysis of the deposited data

Results flagged for a closer look

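Among 64 sets of 4 values (the member probe sets and named genes in each fraction), 2 held a pool far from the other 3, where chance gives about 1 in 20. Hes7 read 5.89 in Sox2-positive pool 1 and 5.70 to 5.73 in the other Sox2-positive pools, a gap of 0.871 of the group's whole range. Jag1 read 6.75 in Sox2-positive pool 3 and 5.96 to 6.03 in the others, a gap of 0.907 of the range.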

How the results depend on the processing

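Each member difference kept its sign in all alternatives run, and the calls of Hes5 (0.44 to 1.05) and Hey2 (1.09 to 1.29) kept their side of the threshold. Hey1 passed with the replicate block (-0.37), and leaving out 1 array gave -0.51 to -0.24 for Hey1 and -0.38 to -0.19 for Hes3, each passing once. The replicate block left 1 member lower, and leaving out 1 array 0 to 1. Pathway list genes higher were 11 with the replicate block and with quantile normalization, and those lower were 4 to 8 with 1 array left out. The block changed no other call of a member. The within-array differences were 0.79 (Hes5 against Hes1), 1.55 (Hey2 against Hey1) and 1.02 (probe sets of Hes5) with the replicate block, where an exact test of 4 pairs cannot go below p = 0.125. With 1 array left out they were 0.60 to 0.93, 1.46 to 1.69 and 0.79 to 1.17, with exact permutation p adjusted over 3 comparisons of 0.0286 to 0.0571 for Hes5 against Hes1 and Hey2 against Hey1. Hes3 and Hes7 could not be followed without the dimmer genes, since the filter (mean under 5.86) removes them. The number of arrays, and signals near those of receptor genes not known to be used here, limit what can be seen for Hes1, Hes3, Hes6 and Hes7.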

Other observations

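Lfng, whose product adds sugar to Notch receptors, was chosen after its values were seen. It read 7.59, 7.06, 8.01 and 7.18 in the Sox2-positive pools and 6.81 to 6.98 in the Sox2-negative pools. The groups did not overlap, and its log2 difference of 0.55 was larger than those of the called genes of its list, but it did not pass in limma (adjusted p = 0.0575; 0.0178 with the replicate block), and its SD in the Sox2-positive group was 0.43.

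Sox2-positive pool 3, also looked at after the values were seen, held the highest Sox2-positive value of Hes5 (7.50), Jag1 (6.75), Lfng (8.01), Nrarp (5.94) and Id3 (5.53). The same pool held the lowest Sox2-positive value of Hes1 (5.93), Hes3 (4.39), Hes6 (5.79) and Hey1 (9.14). It was also lowest for the brighter probe set of Hes7 (5.70) and the dimmer one of Hes5 (4.63). Hey2 (7.79) and Notch1 (7.92) were highest in Sox2-positive pool 2 instead. Over all genes Sox2-positive pool 3 was the highest of the 4 for 25.6%, and over genes called higher for 43.8%. The difference between this pool and the others was not tested.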
